A study of Mus musculus with 2 samples.

Results

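Adventitial fibroblasts were examined in single-cell RNA sequencing (scRNA-seq) of neonatal mouse lung, where 187 cells, 32 from the room air library and 155 from the hyperoxia library, were selected out of 15520 cells kept. The cells were chosen by measured values. A cell entered the gate when it had no unique molecular identifier (UMI) of *Ptprc*, *Cdh5* or *Epcam*, which mark immune, endothelial and epithelial cells, and at least 3 UMIs of *Col1a2*, a chain of type I collagen. It also needed at least 5 UMIs in all of the 4 gate markers *Pi16*, *Serpinf1*, *Clec3b* and *Col14a1*, and this sum had to exceed both that of *Tcf21*, *Scube2*, *Col13a1* and *Ogn*, used here for alveolar fibroblasts, and that of *Aspn*, *Wnt5a*, *Pappa2* and *Ltbp2*, used for alveolar myofibroblasts. The levels of these genes in the selected cells are therefore descriptions and not results. Both groups were wild-type C57BL/6 pups whose whole lungs were dissociated on postnatal day 14, when the mice were 2 weeks old. The room air group (normoxia) was kept in 21% oxygen from birth, and the hyperoxia group in 80% oxygen over the same days. Cells of 8 mice were pooled into 1 library per group, so no difference between the groups has a replicate check, and the sex of the mice is not given in the sources used here.

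Adventitial fibroblasts lie in the loose connective tissue cuff around the larger vessels and airways of the lung, beside nerves, lymphatic vessels and resident immune cells. They produce collagens and small leucine-rich proteoglycans, the matrix of this cuff, and are known as a source of complement proteins, chemokines and the alarmin IL-33. Prolonged high oxygen in the neonatal period is used in mice as a model of bronchopulmonary dysplasia, the chronic lung disease of preterm infants.

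The libraries held 4234 barcodes with 39593888 UMIs in room air and 13223 barcodes with 111934936 UMIs in hyperoxia. Cells with under 500 genes detected or over 20% of UMIs from mitochondrial genes were left out, which kept 3809 and 11711. The libraries shared 17 barcodes, and 0 of the selected cells carried one of them. Among the selected cells the median depth was 18160 UMIs in room air (range 1426 to 33105) and 12641 in hyperoxia (range 997 to 37369), so the room air cells were read more deeply but were fewer. *Xist*, which is transcribed from the inactive X chromosome of females, had 123 UMIs per 1e+06 UMIs (CPM) in the selected cells of room air and 289 CPM in those of hyperoxia, while the Y-linked *Ddx3y* had 97.7 and 106 CPM. The mixture of sexes in the pools cannot be told apart from the oxygen level. Intervals given below are exact 95% intervals that cover counting error only.

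The gate markers were carried unevenly by the selected cells. *Pi16* (chromosome 17, 29317680 to 29330593 in mm10), a marker of fibroblasts with progenitor features, was detected in 11 of 32 cells in room air and 46 of 155 cells in hyperoxia. *Serpinf1* (chromosome 11, 75409769 to 75422701), which encodes the secreted factor PEDF, was detected in 25 and 123 cells. *Clec3b* (chromosome 9, 123150946 to 123157432), which encodes the plasminogen-binding protein tetranectin, was found in 23 and 120 cells, and *Col14a1* (chromosome 15, 55307750 to 55520803), a collagen that associates with fibrils, in 32 and 151. B cells, taken as cells that should lack these genes, had a UMI of *Pi16* in 2 of 290 cells in room air and 4 of 989 in hyperoxia, at median depths of 4735.5 and 2999 UMIs. They were cells with at least 3 UMIs of *Cd79a* and no UMI of *Epcam*, *Cdh5* or *Col1a2*. B cells with free *Col1a2* RNA were thus left out beforehand, and B cell counts here and below can understate free stromal RNA. All 4 markers were present in 11 and 39 of the selected cells, and a single marker in 5 and 24, of which 5 and 22 had *Col14a1* alone. The sum of the 4 markers ranged from 5 to 296 UMIs in room air (median 45) and from 5 to 172 in hyperoxia (median 42). At the threshold, 1 and 10 cells stood just inside with 5 UMIs, and 1 and 6 cells that met every other condition stood just outside with 4.

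**Figure D1:**
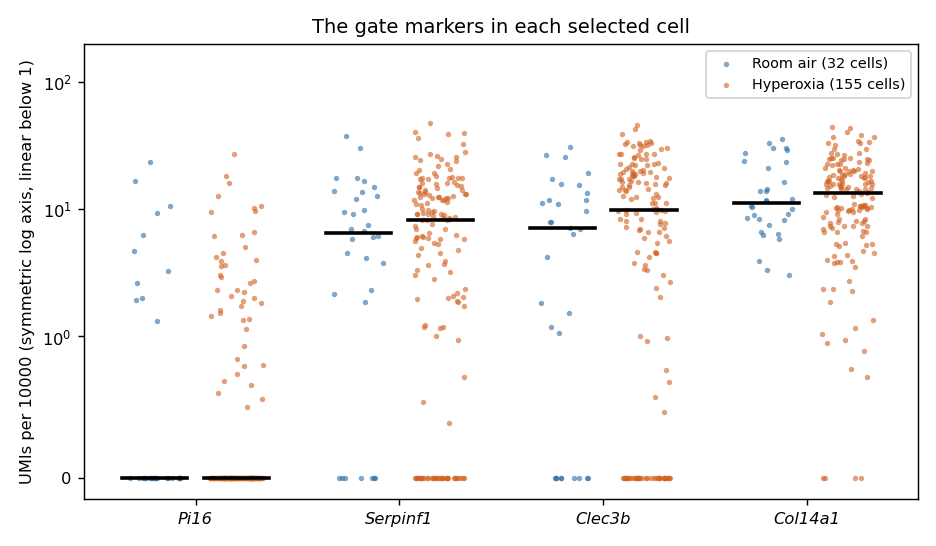
UMIs per 10000 of each gate marker in each selected cell (vertical symmetric log axis, linear below 1), room air in blue and hyperoxia in orange, with black bars at the medians. Cells with and without *Pi16* are found in both libraries, and *Col14a1* was detected in 32 of 32 and 151 of 155 cells.

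Checked against markers of other lung cells, the label held for most of the selected cells but not for all of them. The summed UMIs of 10 smooth muscle markers, among them *Myh11*, the myosin heavy chain of smooth muscle, reached or passed those of the gate markers in 9 of the room air cells and 25 of the hyperoxia cells. Mesothelial markers, such as *Upk3b*, did so in 0 and 10 cells, and the list of cartilage and nerve markers in 2 and 9. Cells in which the gate markers exceeded each of these 3 lists are called the core of the gate here. This division was made after the markers had been seen, and it kept 23 room air and 113 hyperoxia cells, 136 of 187. The 9 and 42 cells outside the core had median sums of 11 and 9 UMIs of the gate markers, against 57 and 62 in the core. Each of the cells with *Col14a1* as the single marker fell outside the core. All 187 are therefore called selected cells rather than adventitial fibroblasts below, and core values are given beside many of the results.

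The other cell types were not spread evenly over the libraries. Mesothelial markers summed to 8.88 CPM in the selected cells of room air and 416 CPM in hyperoxia, and to 8.98 and 11.3 CPM in the core, with *Upk3b*, *Wt1*, *Lrrn4*, *Gpm6a*, *Bnc1* and *Muc16* at 0 UMIs in room air. Smooth muscle markers summed to 4914 and 5200 CPM and, in the core, to 528 and 477 CPM. The contractile gene *Acta2* was at 1877 and 2158 CPM in all selected cells and at 159 and 129 CPM in the core, and *Myh11* at 430 and 462 CPM against 2.25 and 5.99 CPM. Cartilage and nerve markers summed to 170 and 470 CPM, and to 65.1 and 49.9 CPM in the core, where *Matn1* was at 0 in both libraries. The core was defined by the lists named so far in this paragraph. Low levels of these lists and their genes in it therefore follow from its definition and are no check of the label. Pericyte markers summed to 1272 and 1316 CPM and endothelial markers to 401 and 280 CPM. These lists were not used to define the core, where they summed to 997 and 1133 CPM and to 481 and 317 CPM. Epithelial markers summed to 472 and 829 CPM, below the 1092 and 4231 CPM found in B cells, and immune markers to 87.0 and 182 CPM. A ranking against simulated doublets placed 0 and 3 of the selected cells among the likely doublets. Of all kept cells it placed 129 of 3809 (3.39%) and 1239 of 11711 (10.6%) there, shares set beforehand from the number of barcodes. The gate had already left out cells with a UMI of *Ptprc*, *Cdh5* or *Epcam*.

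**Figure D2:**
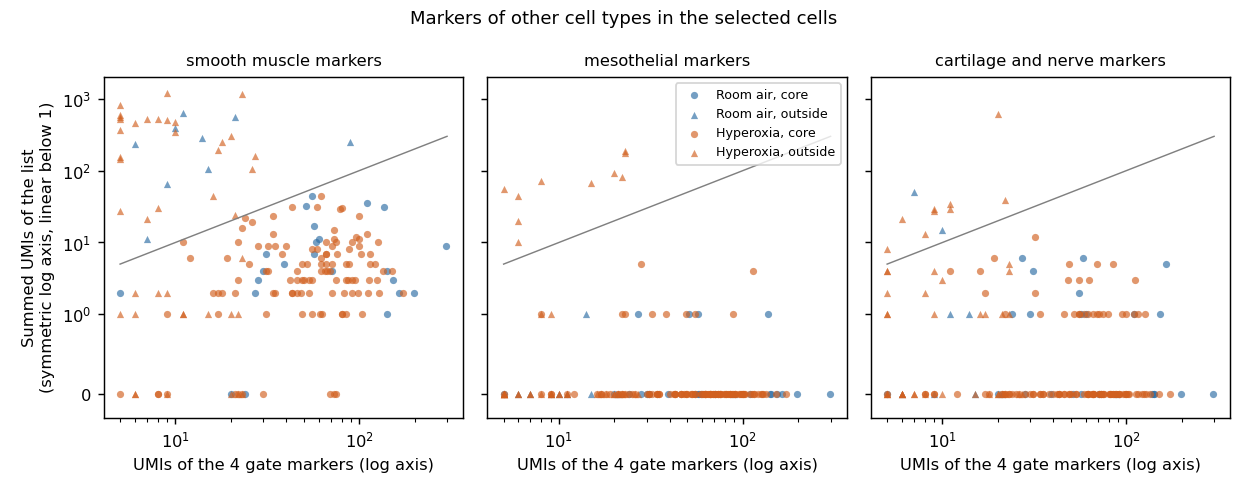
Summed UMIs of smooth muscle, mesothelial and cartilage and nerve markers (vertical symmetric log axis) against the UMIs of the 4 gate markers (horizontal log axis), 1 point per selected cell, with circles for the core and triangles for cells outside it. Triangles lie mostly at low gate sums, and cells above the grey line of equality carry more UMIs of the other type.

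Selected cells made up 4.54% of the gated stromal cells in room air (32 of 705, interval 3.13 to 6.35%) and 7.35% in hyperoxia (155 of 2108, 6.27 to 8.55%). The share was 2.81 percentage points higher in the hyperoxia library (interval 0.708 to 4.67 points). Of all kept cells they formed 0.840% and 1.32%. The core made up 3.26% (2.08 to 4.86%) and 5.36% (4.44 to 6.41%) of the stromal cells, a difference of 2.10 points (0.257 to 3.68 points). Both intervals lay above 0, but they hold no spread between mice or dissociations. In the same stromal cells the gate for alveolar *Tcf21* fibroblasts went from 25.8% to 45.8% and that for alveolar myofibroblasts from 66.1% to 41.3%, so the shares are not independent of each other.

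Outside the gate markers, the genes that set the selected cells apart from the other stromal cells included many known from adventitial fibroblasts. These contrasts follow from the way the cells were chosen and were not tested. *Scara5*, a ferritin receptor, was at 62.2 and 99.6 CPM in room air and hyperoxia in the selected cells, against 0.430 and 1.24 CPM in the other stromal cells. *Dcn*, which encodes the proteoglycan decorin, was at 5992 and 5556 CPM against 74.6 and 231 CPM, and *Lum*, lumican, at 1236 and 640 CPM against 27.3 and 37.3 CPM. *Il33*, the alarmin of the tissue cuff, was at 63.9 and 109 CPM against 0.430 and 4.21 CPM. *Ccl11*, the eosinophil chemokine eotaxin, was at 254 and 175 CPM against 3.22 and 8.02 CPM. *Ly6a*, which encodes the surface antigen Sca-1, was at 392 and 356 CPM against 4.94 and 10.2 CPM. The other genes among the 15 with the highest ratios were *Lsamp*, *Cpz*, *Dner*, *Gxylt2*, *Ntrk2*, *Entpd2*, *C3*, *Tspan11* and *Fbln2*, and the lower of the ratios in both libraries ran from 14.2 for *Fbln2* to 80.2 for *Scara5*.

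Between the libraries most genes of the selected cells differed little. Of 3116 genes with a mean of at least 50 CPM, 73 (2.34%) were at least 2-fold higher in the hyperoxia library and 28 (0.899%) at least 2-fold lower, and the log2 ratios (hyperoxia over room air) had a median of −0.03. In the core, 2.52% of 3015 genes were at least 2-fold higher and 1.46% at least 2-fold lower. The gate was also set on counts thinned to 3000 UMIs per cell, called the thinned gate here, which 24 and 145 cells passed. Its ratios rest on 72000 and 435000 UMIs and are given beside many of the results they move past or within 2-fold or turn in direction, often with the ratio over all UMIs of the same cells. Percentages over all selected cells are the background for the gene lists below, in which a count means genes past 2-fold and no list was tested. Of each pair of CPM given below, the former is from room air and the latter from hyperoxia, and the value after it is the log2 ratio, as are the medians of the lists. Of 25 further adventitial markers compared, 2 were at least 2-fold higher (*Igfbp6* and *Fgl2*), 0 lower and 23 within 2-fold, with a median of 0.05. *Dcn* stood at −0.11, *Mfap5*, which encodes a microfibril glycoprotein, at −0.10, and *Dpt*, which encodes the collagen-binding protein dermatopontin, at 0.66 (824 and 1305 CPM).

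**Figure D3:**
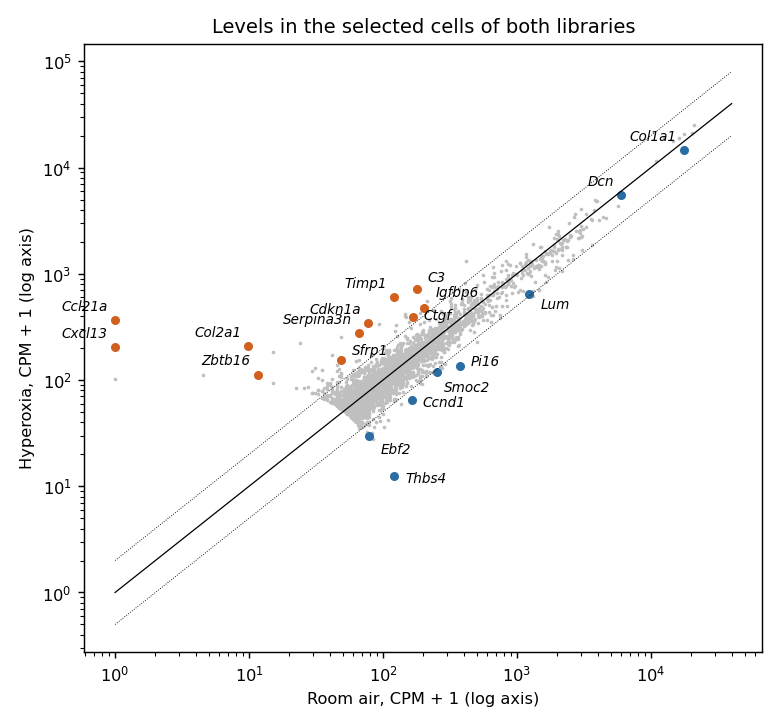
Level of each of the 3116 compared genes in the selected cells, room air on the horizontal and hyperoxia on the vertical axis (CPM + 1, both log axes). The solid line marks equal levels and the dotted lines 2-fold differences, and named genes above the solid line are orange, those below it blue.

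The fibrillar collagen genes *Col1a1* and *Col3a1* differed by less than 2-fold between the libraries. *Col1a1* was lower in hyperoxia, at 17686 and 14666 CPM in room air and hyperoxia (log2 ratio −0.27, interval −0.30 to −0.24). In the thinned gate its ratio was −0.52 (interval −0.60 to −0.44). *Col3a1* was at 20130 and 21187 CPM (0.07). Both chains of the type IV collagen of basement membranes were higher in the hyperoxia library, *Col4a1* at 554 and 973 CPM (log2 ratio 0.81, core 1.11) and *Col4a2* at 336 and 466 CPM (0.47, core 0.73). *Col15a1*, a basement membrane collagen, was at 634 and 410 CPM (−0.63). Of 14 collagen genes 1 was at least 2-fold higher (*Col27a1*, 37.3 and 81.9 CPM, log2 ratio 1.13), 0 were lower, and the median was 0.08 (core −0.04). *Col27a1* was within 2-fold in the core (0.81), without the hyperoxia cell that held the most (0.87) and over all UMIs of the cells in the thinned gate (0.64). In the core *Col4a1* was the 1 collagen at least 2-fold higher, and 1 was lower, *Col18a1* (−1.03).

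The elastic fibre genes, 17 compared, held 0 past 2-fold in either direction with a median of 0.06. *Eln*, tropoelastin, was at 10961 and 11407 CPM (log2 ratio 0.06) in all selected cells and at 8558 and 10854 CPM in the core (0.34). *Lox*, the lysyl oxidase that crosslinks elastin and collagen, was at 320 and 592 CPM in room air and hyperoxia (0.89, interval 0.66 to 1.12), and in the core at 339 and 684 CPM (1.01). *Plod2*, which hydroxylates collagen lysines ahead of crosslinking, was at 65.7 and 128 CPM (0.97).

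Proteoglycans and glycoproteins held genes on both sides, with 1 of 20 genes at least 2-fold higher, 2 lower and a median of 0.02. *Podn*, podocan, a leucine-rich proteoglycan, was at 65.7 and 154 CPM (log2 ratio 1.23, interval 0.73 to 1.76). *Lum* was at 1236 and 640 CPM in room air and hyperoxia (−0.95, interval −1.08 to −0.81), but 232 of its 696 room air UMIs came from 1 cell, without which the ratio was −0.43. The matricellular gene *Smoc2* was at 252 and 118 CPM (−1.09, core −1.15), and −0.77 without the room air cell that held the most. In the thinned gate it was −0.52, and −0.47 over all UMIs of those cells. *Thbs4*, thrombospondin 4, had 68 UMIs in 2 cells of room air and 23 UMIs in 3 cells of hyperoxia, too few cells to describe the type. In these genes 1 or 2 of the 32 room air cells thus weighed heavily in the ratio.

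Protease inhibitors stood among the genes with the highest ratios. Of 22 metalloproteinases and inhibitors, 2 were at least 2-fold higher, 0 lower, and the median was 0.20 (core 0.28). *Timp1* (chromosome X, 20870166 to 20874735), an inhibitor of metalloproteinases, was at 121 and 606 CPM in room air and hyperoxia (log2 ratio 2.33, interval 1.98 to 2.70). A single hyperoxia cell held 523 of its 1200 UMIs, and without that cell the ratio was 1.52. *Timp1* was detected in 23 of 32 and 99 of 155 cells, so its higher level did not come with a higher share of positive cells at these unequal depths. In thinned cells the share with a UMI, averaged over all possible draws of 3000 UMIs, was 27.3% in room air and 37.5% in hyperoxia, and 32.9% and 45.5% in the core. In B cells 1 of 290 and 2 of 989 cells had one.

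*Serpina3n* (chromosome 12, 104406729 to 104414329), a serine protease inhibitor of the acute phase response, was at 65.7 and 277 CPM in room air and hyperoxia (log2 ratio 2.08, interval 1.60 to 2.60). It stayed at 1.99 without the cell that held the most and at 2.06 in the core. In the thinned gate, with 12 and 119 UMIs, it was 0.71 (interval −0.14 to 1.71), and 1.20 over all UMIs of those cells. It was detected in 9 of 32 and 78 of 155 cells, and in 0 of 290 and 2 of 989 B cells. *Timp2* was at 858 and 1242 CPM (0.53), and *Timp3*, the matrix-bound inhibitor, at 662 and 1147 CPM (0.79). *Mmp2*, gelatinase A, was at 504 and 780 CPM (0.63), and *Mmp3*, stromelysin, at 179 and 145 CPM (−0.31). In the thinned gate *Mmp3*, with 24 and 52 UMIs, was past 2-fold at −1.48 (interval −2.20 to −0.72). It was detected in 5 of 32 and 37 of 155 selected cells.

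Complement genes were mostly higher in the hyperoxia library. Of 9 genes compared, 8 had a ratio above 0, 2 were at least 2-fold higher, 0 were lower, and the median was 0.41 (core 0.55). The median over all 3116 genes was −0.03. *C3* (chromosome 17, 57203970 to 57228136), the central component of the cascade, was at 178 and 718 CPM in room air and hyperoxia (log2 ratio 2.01, interval 1.72 to 2.32). In the core it was at 220 and 461 CPM (1.07), so the ratio was lower where the mesothelial markers, at 8.88 and 416 CPM in all selected cells, were nearly absent. Their part in the result was not tested. In the thinned gate, with 26 and 229 UMIs, the ratio of *C3* was 0.54 (interval −0.04 to 1.19), under 2-fold, and over all UMIs of those cells it was 1.17. It was detected in 8 of 32 and 67 of 155 cells, against 8 of 290 and 16 of 989 B cells. *C1s1*, a serine protease of the classical pathway, was at 323 and 514 CPM (0.67, core 0.70), and *Serping1*, the C1 inhibitor, at 1158 and 1531 CPM (0.40, core 0.44). *C2* was at 37.3 and 86.9 CPM (1.22), 0.77 in the core and 0.95 in the thinned gate.

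The 250 bases before the annotated start of *C3*, *Timp1* and *Serpina3n* are printed because these genes of secreted acute phase or matrix proteins were over 2-fold higher in the hyperoxia library both in all selected cells and in the core, though *C3* and *Serpina3n* were not in the thinned gate, and they were picked after these values had been seen. They come from RefSeq (GRCm38.p6) and are written in the direction of transcription. The *Serpina3n* sequence ends at 104406707, a few bases short of the gene start given above, which comes from another annotation (GENCODE). Matches to TTGCNNAA (C/EBP), TTCNNNGAA (STAT) and AGAACA (a part of the glucocorticoid receptor site) were searched on both strands and are in capitals, and the C/EBP letters were chosen after the sequence of *C3* had been read. *C3* had 1 C/EBP match, *Serpina3n* had 1 AGAACA match, and *Timp1* had 0 matches of the 3 motifs. Of 32851 promoters of the same length, 9.56% held the C/EBP letters, 7.02% those of STAT and 16.1% AGAACA, so single matches are common. *Cebpb*, a C/EBP factor, was at 201 and 351 CPM (log2 ratio 0.81).
C3, chr17:57228137-57228386, minus strand: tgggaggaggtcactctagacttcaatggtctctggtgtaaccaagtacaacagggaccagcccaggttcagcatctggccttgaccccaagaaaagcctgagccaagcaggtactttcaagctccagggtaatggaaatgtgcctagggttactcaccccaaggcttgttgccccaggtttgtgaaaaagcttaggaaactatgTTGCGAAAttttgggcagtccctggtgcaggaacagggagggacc
Timp1, chrX:20869916-20870165, plus strand: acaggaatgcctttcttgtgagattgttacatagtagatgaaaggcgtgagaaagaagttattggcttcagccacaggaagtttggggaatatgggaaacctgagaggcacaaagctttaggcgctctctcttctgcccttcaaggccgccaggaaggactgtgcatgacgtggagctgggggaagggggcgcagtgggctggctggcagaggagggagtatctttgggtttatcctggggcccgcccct
Serpina3n, chr12:104406458-104406707, plus strand: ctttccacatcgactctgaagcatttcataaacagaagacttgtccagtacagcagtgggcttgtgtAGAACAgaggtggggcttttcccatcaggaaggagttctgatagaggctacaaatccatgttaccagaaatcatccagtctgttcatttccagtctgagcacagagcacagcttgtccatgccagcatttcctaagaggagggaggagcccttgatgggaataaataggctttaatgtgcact

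Chemokines and cytokines were uneven among cells. Of 7 genes compared, 3 were at least 2-fold higher in hyperoxia and 0 lower, but a few cells supplied the UMIs of each of the 3. *Cxcl13*, the attractant of B cells, had 0 UMIs in room air and 406 in hyperoxia, in 17 of 155 cells (B cells 0 of 290 and 2 of 989). A single cell held 168 of these UMIs, and 11 of the 113 core cells were positive. With the 0 read as allowing 3 counts, the summed level was at least 38.5-fold higher in hyperoxia. That bound treats UMIs as separate counts and does not hold for cells. By cells, 0 of 32 in room air (interval 0 to 10.9%) stood against 11.0% in hyperoxia (6.52 to 17.0%), and these intervals overlap. *Ccl19*, a ligand of CCR7, was at 28.4 and 121 CPM, with 148 of 239 hyperoxia UMIs in 1 cell and a log2 ratio of 0.71 without it and of −0.27 in the thinned gate, where 1 and 5 UMIs were left. *Ccl21a*, whose copies in the genome are nearly identical so that its count is uncertain, had 0 and 732 UMIs, 655 of them in 1 cell. Of the chemokines and cytokines seen in more cells, *Cxcl12* was at 302 and 356 CPM (0.24) and *Il33* at 63.9 and 109 CPM (0.77, and −0.30 over all UMIs of the cells in the thinned gate). *Ccl11* was at 254 and 175 CPM (−0.54), but the direction was not stable, with 0.05 without the room air cell that held the most, 0.14 without *Serpinf1* in the gate, 2.34 in the thinned gate (interval 0.75 to 4.65) and 0.90 over all UMIs of those cells.

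Growth factor genes included 1 of 15 ligands at least 2-fold higher and 0 lower, with a median of 0.31. This was *Slit2*, a guidance ligand of ROBO receptors, at 28.4 and 73.8 CPM (log2 ratio 1.38). *Igf1* was at 474 and 526 CPM (0.15) and *Figf*, which encodes VEGF-D, at 156 and 194 CPM (0.31). Among 15 secreted inhibitors 2 were at least 2-fold higher, 0 lower, and the median was 0.18 (core 0.43). *Sfrp1*, which binds WNT ligands, was at 47.9 and 153 CPM in room air and hyperoxia (1.68, interval 1.11 to 2.30), and 1.59 in the core. *Igfbp6*, which binds IGF2, was at 202 and 480 CPM (1.24), but at 245 and 357 CPM in the core (0.54). *Igfbp5* had its higher ratio in the core, 1.43 (157 and 424 CPM), against 0.25 in all selected cells.

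Among 24 receptors 0 passed 2-fold in either direction, and the median was 0.14 (core 0.33). *Fgfr1*, the receptor the study is about, was at 172 and 215 CPM in room air and hyperoxia (log2 ratio 0.32, interval −0.003 to 0.65), and was detected in 25 of 32 and 133 of 155 cells, against 4 of 290 and 16 of 989 B cells. This interval of *Fgfr1* included 0. In the thinned gate, a single random draw with 8 and 101 UMIs, the ratio of *Fgfr1* was 1.06 (interval 0.03 to 2.31), past 2-fold. Among thinned selected cells, over all draws, the share with a UMI of *Fgfr1* was 37.7% in room air and 46.3% in hyperoxia. In the core these shares were 45.4% and 52.1%. *Fgfr2* had 5 and 36 UMIs, 8.88 and 18.2 CPM (1.03, interval −0.32 to 2.74), too few for a direction. *Pdgfra*, the PDGF receptor of fibroblasts, was at 263 and 193 CPM (−0.45), and *Gas1*, a hedgehog co-receptor, at 313 and 559 CPM (0.84, core 0.57).

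Of the genes of activated fibroblasts, 3 of 15 were at least 2-fold higher and 1 lower, with a median of 0.18. Besides *Timp1* and *Sfrp1*, *Ctgf*, a matricellular target of TGF-β and YAP, was at 165 and 394 CPM (log2 ratio 1.26, core 0.77, thinned gate 0.70). *Tgfbi*, also a TGF-β target, was lower, at 270 and 131 CPM (−1.04, core −1.07), with 40 of 152 room air UMIs in 1 cell and −0.66 without it. In the thinned gate its ratio was 0.26, and −0.41 over all UMIs of those cells. *Postn*, periostin, was at 828 and 884 CPM (0.10). The list therefore held genes on both sides.

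Fibroblast transcription factors had a median of −0.09 (core 0.10), with 0 of 23 at least 2-fold higher and 1 lower. *Ebf2*, of the early B cell factor family, was at 78.1 and 28.8 CPM in room air and hyperoxia (log2 ratio −1.44, interval −2.03 to −0.84, core −1.41), and −0.79 without the room air cell that held 17 of its 44 UMIs. In the thinned gate it was −0.27, with 4 and 20 UMIs. Its relative *Ebf1* was at 229 and 178 CPM (−0.36). The mesenchymal homeobox gene *Meox2* was at 188 and 98.0 CPM (−0.94, but 0.38 in the thinned gate and −0.76 over all UMIs of those cells) and *Hes1*, a target of Notch, at 186 and 96.0 CPM (−0.96). *Klf4* was at 345 and 512 CPM (0.57), and *Gata6* at 88.8 and 147 CPM (0.72).

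Targets of p53, the factor that answers DNA damage, were compared next. Of 6 genes, 6 had a ratio above 0, 2 were at least 2-fold higher, 0 were lower, and the median was 0.67 (core 0.60). The median over all 3116 genes was −0.03. *Cdkn1a*, the cell cycle inhibitor p21, was at 76.4 and 340 CPM in room air and hyperoxia (log2 ratio 2.16, interval 1.71 to 2.64, core 2.04). It was detected in 12 of 32 and 95 of 155 cells, and in thinned cells, over all draws, in 16.3% and 40.7% (core 17.4% and 39.7%). Of B cells 28 of 290 and 157 of 989 had a UMI. *Trp53inp1* was at 37.3 and 93.5 CPM (1.33, thinned gate 0.46 with 6 and 50 UMIs, and 1.40 over all UMIs of those cells). Of the cell cycle genes 3 could be compared and 0 passed 2-fold.

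In the list of circadian and glucocorticoid-responsive genes, 3 of 8 compared were at least 2-fold higher and 0 lower, with a median of 0.10 (core 0.34). *Zbtb16* (chromosome 9, 48654297 to 48836222), a zinc finger transcription factor that glucocorticoids induce, had 6 UMIs in 6 of 32 room air cells and 221 UMIs in 86 of 155 hyperoxia cells, 10.7 and 112 CPM (log2 ratio 3.39, interval 2.24 to 4.85). It was at 3.57 in the core and at 3.33 without the cell that held the most. In B cells 1 of 290 and 14 of 989 had a UMI. *Tsc22d3*, which encodes the glucocorticoid-induced leucine zipper, was at 33.7 and 124 CPM (1.88, interval 1.21 to 2.64), and *Klf9* at 213 and 450 CPM (1.08, interval 0.80 to 1.36). Of the clock genes in the list, *Per3* was at 76.4 and 66.7 CPM (−0.19), *Tef*, a clock output factor, at 60.4 and 60.1 CPM (−0.01) and *Bhlhe40* at 79.9 and 54.6 CPM (−0.55, but 1.57 in the thinned gate with 1 and 18 UMIs, and 0.11 over all UMIs of those cells). The hour at which the lungs were taken is not given in the sources used here.

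The other stress lists were compared in the same way. Of 17 NRF2 and antioxidant genes, 2 were at least 2-fold higher and 0 lower (median 0.35), namely *Mt2*, a metallothionein, at 21.3 and 83.4 CPM (1.97) and *Ephx1*, an epoxide hydrolase, at 32.0 and 78.8 CPM (1.30). Both were within 2-fold in the thinned gate, at 0.53 and 0.11 with 4 room air UMIs each, and past it over all UMIs of those cells, at 1.46 and 1.48. The antioxidant enzyme gene *Gpx1* was at 186 and 334 CPM (0.84). Of 20 genes of tissue dissociation and immediate early response, 2 were at least 2-fold higher and 0 lower (median 0.29), *Zfp36* at 213 and 553 CPM (1.38) and *Hspb1* at 47.9 and 254 CPM (2.40, core 1.61). *Fos* and *Egr1*, early transcription factor genes of that response, had log2 ratios of 0.22 and 0.33. Of 12 hypoxia and glycolysis genes 1 was at least 2-fold higher and 0 lower (median 0.01), the vasodilator peptide gene *Adm* at 32.0 and 105 CPM (1.71, core 1.80, thinned gate 0.73 with 5 and 50 UMIs, and 2.21 over all UMIs of those cells). Interferon response genes held 0 of 7 higher and 1 lower (median 0.42), which was *Ifi27l2a* at 188 and 92.5 CPM (−1.03, thinned gate −0.86, and −0.59 without the room air cell that held the most).

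In the lists of metabolism and growth, 2 of 9 lipid genes and 1 of 12 imprinted growth genes were at least 2-fold higher, with 0 lower in either. The lipid list had a median of 0.38. Within it, *Apoe*, which carries lipids out of cells, was at 1728 and 2751 CPM (log2 ratio 0.67, core 1.02) and *Fabp5*, a fatty acid binding protein gene, at 44.4 and 120 CPM (1.44). The imprinted noncoding RNA *H19* was at 33.7 and 99.1 CPM (1.55). Its share of positive cells went the other way, with 7 of 32 and 14 of 155 cells. In thinned cells, over all draws, the shares were 7.36% and 5.87%. Retinoid genes held 0 of 3 past 2-fold. Among markers of alveolar fibroblasts that were not in the gate, 1 of 7 was at least 2-fold higher and 0 lower, *Npnt*, nephronectin, at 30.2 and 129 CPM (2.09, core 2.78), in 8 of 32 and 53 of 155 cells, against 8 of 290 and 60 of 989 B cells.

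**Figure D4:**
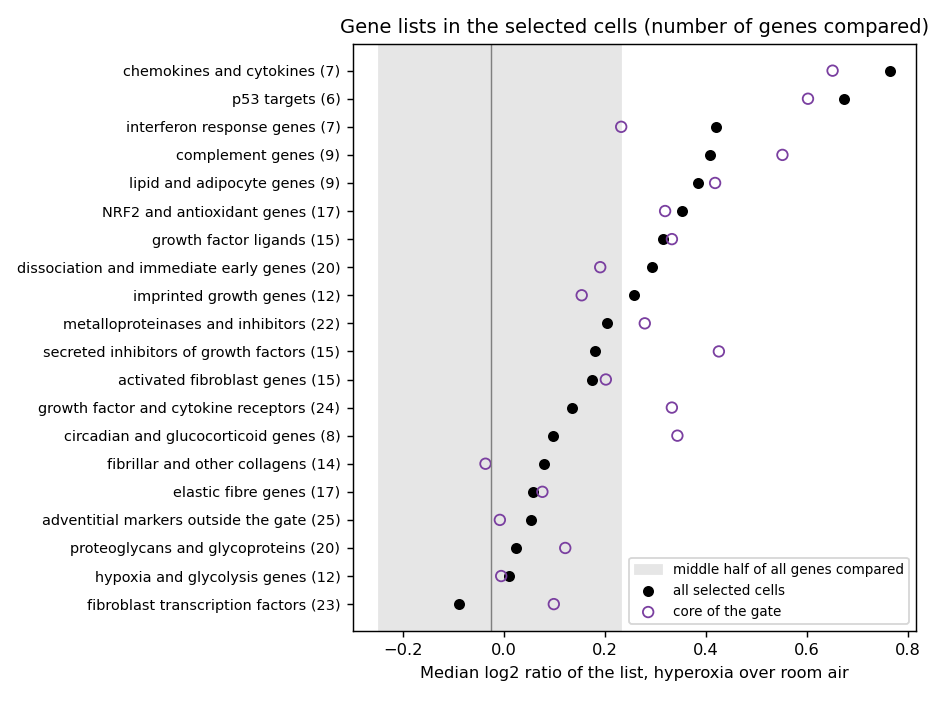
Median log2 ratio (hyperoxia over room air, horizontal axis) of each gene list with at least 5 compared genes, for all selected cells (filled circles) and the core (open circles), with the number of genes in parentheses. The grey band holds the middle 50% of all 3116 genes, from −0.25 to 0.23, and chemokines and p53 targets lie farthest to its right. These lists had only 7 and 6 compared genes, and a few cells supplied the UMIs of the 3 chemokine genes past 2-fold.

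Ratios were ranked among 1834 genes whose level in the selected cells was at least that over all kept cells in the library where the gene was higher, so that genes such as *Cdkn1a* and *Npnt*, higher over all kept cells, were not in the ranking. The 15 genes with the highest ratios in it mixed genes seen in many cells with genes of very few. *Col2a1* of cartilage had 413 of 415 hyperoxia UMIs in 1 cell and turned to −3.08 in the core, and *Col11a1* had 341 of 361 in 1 cell and turned to −1.58. *Upk3b* was at 0 UMIs in the core of both libraries, and *Enpp2*, the lysophospholipase autotaxin, at 3.55 and 110 CPM in all selected cells, was at 4.49 and 9.32 CPM in the core. *Fgl2*, a secreted fibrinogen-like protein gene, was at 23.1 and 222 CPM (log2 ratio 3.27), but 175 of 440 UMIs were in 1 cell and the core ratio was 1.66. *Mpp6*, a scaffold protein gene, was at 40.8 and 171 CPM (2.07, core 1.60), against 36.9 and 38.9 CPM in B cells. The remaining 9 were *Ccl21a*, *Cxcl13*, *Zbtb16*, *Hspb1*, *Timp1*, *Ccl19*, *Serpina3n*, *C3* and *Mt2*, described above.

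Among the 15 genes with the lowest ratios in the same ranking, besides *Thbs4*, *Ebf2* and *Smoc2*, *Ccnd1*, cyclin D1, was at 163 and 63.7 CPM in room air and hyperoxia (log2 ratio −1.36) and at 193 and 36.6 CPM in the core (−2.40), in 8 of 32 and 41 of 155 cells, against 10 of 290 and 50 of 989 B cells. It was −0.76 without the room air cell that held 34 of its 92 UMIs, −0.82 in the thinned gate and −0.13 over all UMIs of those cells. *Cdc42ep3* was at −1.20 in all selected cells and 0.18 in the core. *Cox20*, an assembly factor of cytochrome oxidase, was at 83.5 and 26.8 CPM (−1.64), and *Snrpg*, a spliceosome protein gene, at 273 and 129 CPM (−1.09). *Lsm7*, *Tmem258*, *1810022K09Rik*, *Bloc1s1*, *Snrpg* and *Tmem256* were also lower in the hyperoxia library in the alveolar fibroblast, alveolar myofibroblast and B cell gates, where *Snrpg* had 256 and 108, 237 and 113, and 353 and 207 CPM. *Fam101b*, *Ap1s1* and *Pdrg1* completed the 15, and what these differences shared across cell types was not tested further.

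Several of the genes that were higher in the selected cells were also higher in the neighbouring stromal gates, 182 and 965 alveolar *Tcf21* fibroblasts and 466 and 871 alveolar myofibroblasts. *Zbtb16* was at 7.66 and 283 CPM (log2 ratio 5.21, interval 4.62 to 5.88) in alveolar fibroblasts and at 2.61 and 58.8 CPM (4.49) in myofibroblasts. *Cdkn1a* was at 39.6 and 664 CPM (4.07) and at 47.3 and 865 CPM (4.19), and these intervals did not overlap that of the selected cells. *Timp1* was at 29.3 and 98.1 CPM (1.74) and at 21.0 and 64.5 CPM (1.62), so in both libraries its level was highest in the selected cells of the 3 gates. *Serpina3n* was at 18.0 and 157 CPM (3.13) in alveolar fibroblasts. *Sfrp1* stood at 1.75 and 1.63 in these gates, beside 1.68 in the selected cells. In the other direction, *Ccnd1* was higher in the hyperoxia library in both neighbouring gates, at 22.3 and 53.7 CPM (1.27) and 104 and 308 CPM (1.57), and *Lum* was near 0 in alveolar fibroblasts, at 1.67 and 6.32 CPM. As given above, the lower ratios of *Ccnd1* and *Lum* in the selected cells rested in part on 1 room air cell each. That of *Ccnd1* was also smaller over all UMIs of the cells in the thinned gate. With 1 library per group these differences between gates have no test.

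**Figure D5:**
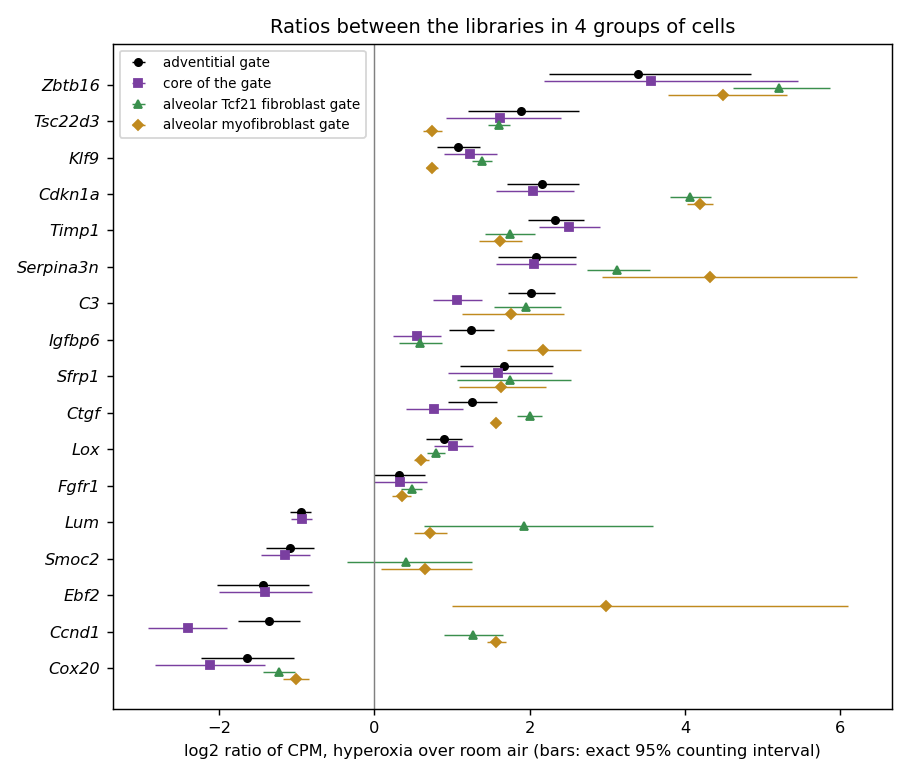
Log2 ratio of CPM, hyperoxia over room air (horizontal axis), with exact 95% counting intervals for 17 genes in all selected cells (black), their core (purple), alveolar *Tcf21* fibroblasts (green) and alveolar myofibroblasts (ochre). Points with fewer than 20 UMIs in the neighbouring gates are left out, and *Ccnd1* and *Lum* lie on opposite sides of 0 in the selected cells and the neighbouring gates. In the selected cells a single room air cell weighed heavily in the ratio of each of these genes.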

How the data were processed

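Each of the 2 libraries held lung cells of 8 pooled mice, from room air or hyperoxia. The authors ran Cell Ranger on mm10, and the deposited files give raw UMI counts for every gene in every barcode called a cell, without normalization. The submitters' processing notes name Cell Ranger 2.1.1 and their protocol 6.1.1, and the matrix headers carry version 3.1.0. Gene and barcode names were read from the deposited lists.

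The calculations used pandas 2.3.3, scipy 1.17.1 and numpy 2.4.6 under Python 3.11.15, and scikit-learn 1.9.0 for the ranking of doublets. The cells were selected on raw UMIs as given above. UMIs of each gene were summed over the selected cells of a library and scaled to CPM. Shares have Clopper-Pearson intervals, and ratios have exact conditional Poisson intervals, tested on simulated data. PCR duplicates were already merged by UMI, and the intervals cover counting error only. Since each group was 1 library, differences were not tested. Genes with a mean of at least 50 CPM were compared, and a 2-fold ratio was the limit for a count. Deeper cells pass a gate on raw UMIs more easily, so the gate was repeated on 1 random draw of 3000 UMIs per cell, both with the thinned counts and, chosen after seeing the data, with all UMIs of the cells that passed. In total UMIs the selected cells of room air held 563094 and those of hyperoxia 1978680.

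Named genes were the genes of the gate, members of the 33 gene lists with a mean of at least 50 CPM, the 15 highest and 15 lowest ratios among 1834 eligible genes (mean of at least 50 CPM and, in the library where the gene was higher, at least as high as over all kept cells, without mitochondrial, ribosomal protein, haemoglobin, sex and gate genes), the 15 highest ratios over other stromal cells, *Fgfr1* and *Fgfr2*. Markers of other cell types were named below that level. The members of the gate and the lists were chosen with earlier results of these data known. Coordinates are from GENCODE release 21 (GRCm38, the same assembly as mm10), promoters from RefSeq. *Cebpd* was not analysed here, and single values of some list members are not reported here.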

Additional observations from a re-analysis of the deposited data

How the results depend on the processing

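The share of selected cells among stromal cells stayed higher in the hyperoxia library under each of the 10 other settings tried, by 1.81 points (without *Col14a1* in the gate) to 3.10 points (at least 3 UMIs of the gate markers). The percentage of genes at least 2-fold higher was 7.80% on the gate thinned to 3000 UMIs and 5.57% with a mean of at least 10 CPM, against 2.34%. The percentage at least 2-fold lower, 0.899%, was 8.09% and 3.40% in these settings, 1.36% with at least 8 UMIs of the gate markers, 1.38% without *Col14a1*, 1.63% as a mean over cells and 1.46% in the core, a setting chosen after seeing the data. Thinned counts and a lower CPM limit rest on fewer UMIs per gene, and the thinned gate also changed which cells were selected. The cause of these shifts was not tested in any setting. Among genes past 2-fold, log2 ratios turned for *Col2a1* (−3.08 in the core, −3.12 without its top cell, −2.76 without *Serpinf1* in the gate), for *Col11a1* (−1.58, −0.47 and −0.17 in the same settings), for *Cdc42ep3* (0.18 in the core, 0.13 without *Col14a1*) and, on the thinned gate, for *Ccl19* (−0.27) and *Tgfbi* (0.26). Among genes within 2-fold, the larger turns were on the thinned gate, to 2.34 for *Ccl11*, 1.57 for *Bhlhe40*, 0.38 for *Meox2*, −0.42 for *Igfbp5*, −0.91 for *Acta2* and −1.33 for *Myh11*, and without *Col14a1*, to −2.06 for *Acta2* and −1.52 for *Myh11*. *Acta2* was also below 0 in the core (−0.30) and with at least 8 UMIs of the gate markers (−0.41). Leaving out the cell with the most UMIs of a gene, also chosen after seeing the data, kept 32 of 48 named genes past 2-fold, and the core kept 40. The thinned gate kept 23 of the 40 with a ratio there, and 32 of 45 over all UMIs of its cells, where 2.72% of genes were at least 2-fold higher and 0.886% lower. Leaving out cells with at least 3 UMIs of other cell types could not be run, since 0 room air and 2 hyperoxia cells remained. No paired analysis was possible because each group was 1 library.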
